A study of Mus musculus with 12 samples.

Results

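The 10 genes described here belong to steroid and drug metabolism in the mouse colon. They are the aldo-keto reductases Akr1c14, Akr1c12, Akr1c13 and Akr1b8, the cytochromes P450 Cyp2c55, Cyp2c65, Cyp4b1 and Cyp2s1, the hydroxysteroid dehydrogenase Hsd17b2, and Nr1i2, which encodes the pregnane X receptor. They were chosen by name, with earlier results of these data known. All 10 were found among the 54532 genes of the count table and among the 16904 genes that passed the filter on low counts. RNA-Seq gave 12 libraries, 3 in each of 4 groups, from colon sections of male wild-type C57BL/6J mice, 5 weeks old. Controls were not given dextran sodium sulfate (DSS), which is added to drinking water to damage the colon lining. Model mice had DSS alone. The Rhy group received DSS and Rhy, rhynchophylline, an alkaloid of Uncaria rhynchophylla, and the DXM group received DSS and the glucocorticoid dexamethasone at 4 mg/kg. The labels list 3 doses of Rhy and do not say which of them the sequenced mice had. They do not give the place along the colon at which the sections were cut, and the paper's RNA-Seq methods do not list the DXM group.

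The epithelium of the colon meets steroids, bile acids, dietary compounds and bacterial products, and it carries its own set of enzymes for them. Aldo-keto reductases and hydroxysteroid dehydrogenases interconvert alcohols with ketones or aldehydes and thereby switch steroids between active and inactive forms. Cytochromes P450 add oxygen to fatty acids, steroids and drugs. The pregnane X receptor is a nuclear receptor that binds steroids, bile acids and many drugs and raises the transcription of P450, transferase and transporter genes.

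The genes lie at 7 places in the mouse genome (GRCm38, coordinates of the count table, the same as in GENCODE M21), and all are annotated as protein-coding. The 3 Akr1c genes share a cluster on chromosome 13, Akr1c14 at chr13:4049011-4090688, Akr1c13 at chr13:4191150-4205596 and Akr1c12 at chr13:4268176-4279433, the last on the minus strand. Cyp2c55 at chr19:39007019-39042693 and Cyp2c65 at chr19:39061015-39093944 are neighbours on the plus strand. Akr1b8 lies at chr6:34354119-34368463, Hsd17b2 at chr8:117701904-117759027, and on the minus strand Cyp4b1 at chr4:115624725-115647723, Cyp2s1 at chr7:25802475-25816913 and Nr1i2 at chr16:38248323-38294824. Some of these genes resemble others closely enough for reads to be split between them or dropped. Of the 50-base stretches in Akr1c12 transcripts, 28.6% also occurred in Akr1c13, and 20.2% of those of Cyp2c65 occurred in Cyp2c66. The share that occurred in any other gene was 8.26% for Cyp4b1, 5.8% for Akr1c14, 2.9% for Akr1b8 and 0.514% for Cyp2c55, and it was 0% for Cyp2s1, Hsd17b2 and Nr1i2. Exons of Akr1c14 overlap the pseudogene Gm18857 on the same strand over 234 bases. On the opposite strand, exons of Cyp2s1 overlap the lincRNA Gm26707 over 260 bases and those of Cyp2c55 overlap the miRNA gene Gm23800 over 64 bases. Whether the counting used strand is not given in the sources used here, so values of Cyp2s1 and Cyp2c55 are uncertain to that extent.

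Sequences in front of the transcription starts were taken from RefSeq (GRCm38.p6), which had an entry for 9 of the 10 genes, all but Hsd17b2. For Akr1c14 (chr13:4059341-4059590) and Cyp2s1 (chr7:25816526-25816775) the window lies inside the gene as placed above, since RefSeq starts these genes further downstream. Both sets below are shown because their genes had their 4 highest values in the same libraries, though other pairs were closer in pattern. The first is Cyp2c55 (chr19:39006769-39007018, plus strand), Cyp2c65 (chr19:39060756-39061005, plus strand) and Cyp4b1 (chr4:115647724-115647971, minus strand), written 5′ to 3′, with capitals at a match to the binding motif of the hepatocyte nuclear factor HNF4.
Cyp2c55: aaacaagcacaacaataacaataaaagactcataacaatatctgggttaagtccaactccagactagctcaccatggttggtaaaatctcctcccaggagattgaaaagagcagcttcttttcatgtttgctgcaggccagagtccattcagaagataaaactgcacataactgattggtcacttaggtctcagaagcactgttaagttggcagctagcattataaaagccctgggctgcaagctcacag
Cyp2c65: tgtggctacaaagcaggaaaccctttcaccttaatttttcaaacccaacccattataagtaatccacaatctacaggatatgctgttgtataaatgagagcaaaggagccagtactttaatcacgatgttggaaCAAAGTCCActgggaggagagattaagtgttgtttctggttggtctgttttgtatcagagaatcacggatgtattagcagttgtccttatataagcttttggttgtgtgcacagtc
Cyp4b1: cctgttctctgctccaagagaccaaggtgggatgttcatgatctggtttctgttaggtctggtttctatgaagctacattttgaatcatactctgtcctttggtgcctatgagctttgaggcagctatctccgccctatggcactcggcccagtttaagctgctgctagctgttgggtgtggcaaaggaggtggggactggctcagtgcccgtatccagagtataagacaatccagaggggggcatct
The motif CAAAGTCCA stood 116 to 108 bases before the start of Cyp2c65 and was found in 1 of the 9 promoters and in 0.384% of all 32851 promoters of 250 bases. Over both strands, the xenobiotic response core GCGTG was found in 1 of the 9, Akr1b8, and in 28.2% of all promoters. The antioxidant response element TGACNNNGC was found in 0 of the 9 and in 10.2% of all. These counts say only which letters these windows hold.

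The second set is Akr1c12 (chr13:4279434-4279649, minus strand) and Akr1c13 (chr13:4190937-4191149, plus strand), up to the first base that GENCODE places in an exon. Capitals mark bases that differ between the pair or are missing in the other.
Akr1c12: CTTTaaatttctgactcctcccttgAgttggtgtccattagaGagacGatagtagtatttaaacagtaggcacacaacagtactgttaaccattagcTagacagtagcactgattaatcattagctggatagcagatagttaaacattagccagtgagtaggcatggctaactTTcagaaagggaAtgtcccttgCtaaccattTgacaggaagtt
Akr1c13: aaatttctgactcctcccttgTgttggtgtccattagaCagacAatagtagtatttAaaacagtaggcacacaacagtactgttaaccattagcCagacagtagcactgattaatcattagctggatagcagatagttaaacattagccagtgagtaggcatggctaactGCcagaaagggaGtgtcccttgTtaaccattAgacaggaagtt
The sequences were identical at 203 of 217 aligned positions (93.55%), whereas the promoters of Cyp2c55 and Cyp2c65 were identical at 50.38% of theirs.

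The libraries held 14346478 to 17749716 counted reads, and 6.33 to 25.7% of these were mitochondrial. The lowest count of any of the 10 genes in a library was 16, for Cyp4b1. The libraries of model 1 and model 2 were nearly alike. Their common dispersion (the squared relative variation between libraries beyond counting noise) was 0.00201, against 0.0604 to 0.351 in the other 65 pairs. The model group therefore carries less independent information than its 3 libraries imply. Hoxb13, a marker of the distal colon, was under 5 CPM in control 3, model 3 and Rhy 1 and was 72.0 to 316 CPM in the other 9. Colon epithelial markers were high throughout, with a summed level of 19138 to 31473 CPM for 12 of 12 detected genes. Liver, where P450 genes are also strongly expressed, was hardly represented, since 8 liver markers summed to 0.342 to 31.5 CPM and Cyp2c29 had no read in any library.

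CPM is the count of a gene scaled to the size of its library and compares 1 gene between libraries. FPKM, which also divides by gene length, compares genes. On the FPKM scale Cyp2c55 had the highest mean level in the control group, 1175 ± 1106 (SD, n = 3). Hsd17b2 followed at 169 ± 53.7, Cyp2c65 at 147 ± 129, Akr1c12 at 131 ± 66.0 and Akr1c13 at 128 ± 82.3. The lower levels were those of Cyp4b1 (75.1 ± 78.0), Akr1c14 (44.0 ± 8.55), Nr1i2 (41.5 ± 8.06), Akr1b8 (40.8 ± 6.88) and Cyp2s1 (33.3 ± 12.6). Each step in this order was smaller than the larger SD of the pair of neighbours. Over the 12 libraries the 10 genes together took 0.0711 to 0.602% of all counts, and Cyp2c55 alone made up 5.92 to 65.9% of their summed CPM.

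**Figure D1:**
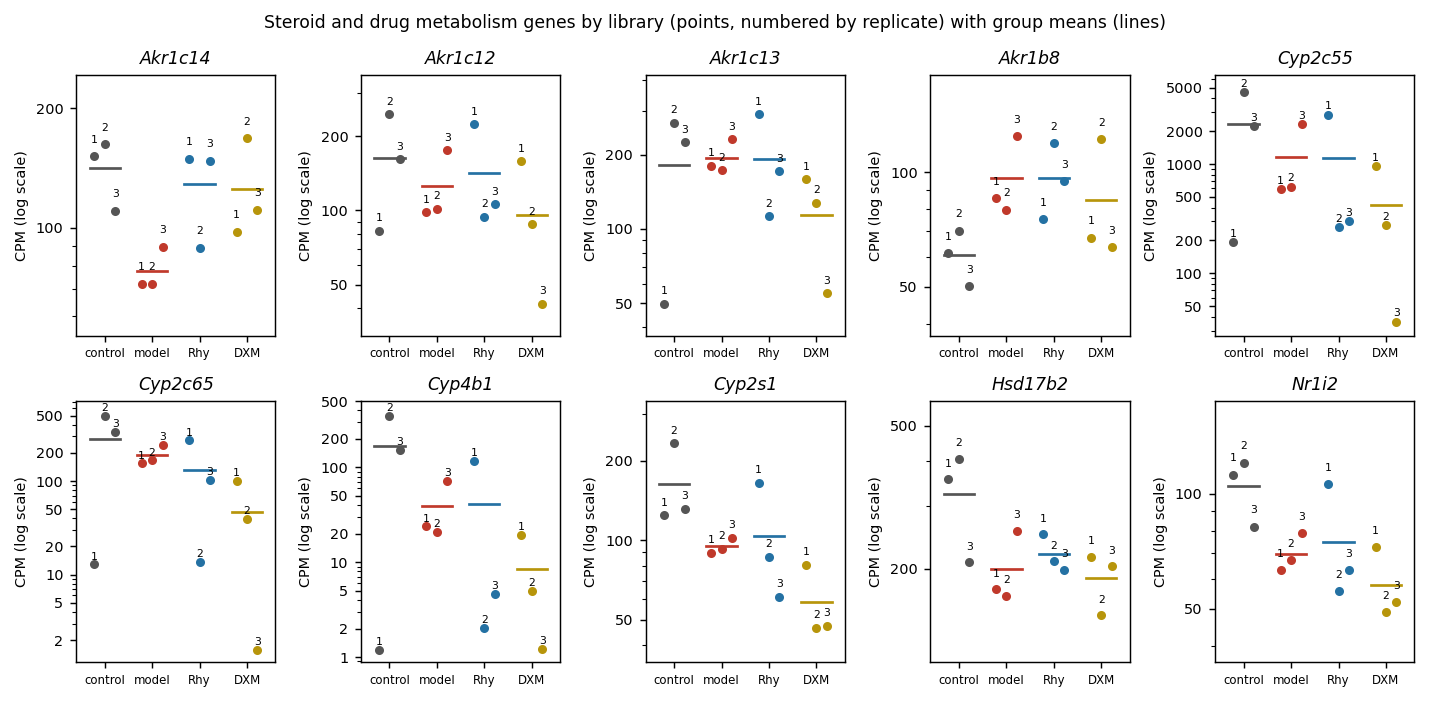
CPM of the 10 genes on log axes, 1 point per library numbered by replicate, with a line at the mean of each group of 3. Akr1c14 in the model group, at 72.0 to 89.4 CPM, lies below every control library, whereas Cyp4b1 spans 1.20 to 347 CPM within the control group alone.

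Akr1c14 encodes a 3α-hydroxysteroid dehydrogenase, which reduces active androgens and progesterone derivatives. Its CPM was 151, 162 and 110 in control 1, 2 and 3, and 72.3, 72.0 and 89.4 in model 1, 2 and 3. It was 149, 89.0 and 147 in the Rhy libraries and 97.5, 168 and 111 in the DXM libraries. All 3 model libraries lay below all control and all DXM libraries, while Rhy 2 lay within the range of the model group. The lowest control value, 110 in control 3, came from 1 of the libraries with low Hoxb13.

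Hsd17b2 encodes an enzyme that oxidises estradiol to estrone and testosterone to androstenedione. Its CPM was 355, 405 and 209 in the control libraries, 175, 168 and 255 in the model libraries, 250, 210 and 199 in the Rhy libraries and 216, 149 and 203 in the DXM libraries. Control 1 and control 2 stood above all other libraries, and control 3 lay among the libraries of DSS-treated mice. Nr1i2 had a similar order, with 112, 121 and 82.1 CPM in the control libraries and 63.1, 67.1 and 79.0 in the model libraries. It stood at 106, 55.5 and 63.1 in the Rhy libraries and at 72.5, 49.0 and 52.0 in the DXM libraries. Every model and DXM library lay below every control library, and Rhy 1 lay among the controls.

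Cyp2s1 is a P450 of epithelia outside the liver and a known target of the aryl hydrocarbon receptor. Its CPM was 124, 233 and 131 in the control group, 89.7, 92.6 and 102 in the model group, 165, 86.5 and 61.1 in the Rhy group and 80.5, 46.6 and 47.3 in the DXM group. The 3 groups without Rhy did not overlap, with control highest and DXM lowest, whereas the Rhy libraries ranged from the DXM range to the control range.

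Akr1b8 is a relative of aldose reductase that reduces reactive aldehydes. It was at 61.5, 70.3 and 50.2 CPM in the control libraries and at 85.7, 79.8 and 125 CPM in the model libraries. The Rhy libraries had 75.5, 120 and 94.8 CPM and the DXM libraries 67.3, 122 and 63.7 CPM. The model and Rhy libraries all lay above the controls, and DXM 1 and DXM 3 lay within the control range.

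Cyp2c55 and Cyp2c65 encode gut P450 enzymes that oxidise arachidonic acid, and Cyp4b1 encodes a P450 that hydroxylates fatty acids and activates some plant toxins. Cyp2c55 was at 193, 4537 and 2217 CPM in the control libraries, 594, 622 and 2298 in the model libraries, 2830, 264 and 301 in the Rhy libraries and 953, 275 and 36.3 in the DXM libraries. Cyp2c65 was at 12.9, 497 and 333 CPM in the control libraries, 154, 166 and 243 in the model libraries, 273, 13.6 and 104 in the Rhy libraries and 101, 39.1 and 1.57 in the DXM libraries. Cyp4b1 was at 1.20, 347 and 153 CPM in the control libraries, 23.9, 20.8 and 72.6 in the model libraries, 118, 2.02 and 4.64 in the Rhy libraries and 19.3, 4.96 and 1.22 in the DXM libraries. In all 3 genes control 1 and DXM 3 were among the lowest libraries, and control 2 was the highest.

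The spread of these 3 genes inside the groups was far above that of a usual gene. The SD of log2 CPM within groups was 2.02 for Cyp2c55, 2.39 for Cyp2c65 and 2.87 for Cyp4b1, against a median of 0.42 over the 16904 genes, and exceeded that of 99.3%, 99.7% and 99.9% of them. The highest library exceeded the lowest 125-fold, 316-fold and 290-fold. For Akr1c14, Hsd17b2, Nr1i2 and Akr1b8 the SD was 0.34, 0.35, 0.34 and 0.37, below the median of all genes.

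Akr1c12 and Akr1c13 encode oxidoreductases that act on hydroxysteroids and xenobiotic alcohols. Akr1c12 was at 82.7, 246 and 162 CPM in the control libraries, 98.3, 102 and 176 in the model libraries, 225, 94.4 and 106 in the Rhy libraries and 158, 87.9 and 41.8 in the DXM libraries. Akr1c13 was at 49.9, 270 and 225 CPM in the control libraries, 180, 173 and 231 in the model libraries, 291, 113 and 172 in the Rhy libraries and 159, 128 and 55.2 in the DXM libraries. Both had low values in DXM 3 and control 1, and all groups overlapped except that every DXM library lay below every model library for Akr1c13. The ratio of Akr1c12 to Akr1c13 ranged from 0.545 to 1.66, and their sum from 96.9 to 516 CPM. The sum does not depend on how shared reads were split between the 2 genes, but it lacks any that were dropped. Which was done is not given in the sources used here.

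Of the 10 genes 5, Cyp2c55, Cyp2c65, Cyp4b1, Akr1c12 and Akr1c13, had their 4 highest values in the same libraries, control 2, control 3, model 3 and Rhy 1. These are the 4 libraries with the highest level of Hoxb8, 19.8 to 42.0 CPM against 0.150 to 11.9 CPM in the other 8. Of all 16904 genes, 840 (4.97%) shared these top 4 libraries. Hoxb8 and Hoxb6 mark position along the body axis and were picked after their values were seen. By Hoxb6 the order differed, with control 3 at 36.3 CPM below model 1 at 47.5 and model 2 at 44.7 CPM. Cyp2c55 was at 2217 to 4537 CPM in the 4 libraries and at no more than 953 CPM in the rest, and Cyp4b1 at 72.6 to 347 against no more than 23.9 CPM. The gap was smaller for Cyp2c65 (243 CPM or more against no more than 166) and Akr1c13 (225 against 180). For Akr1c12 it was nearly absent (162 against 158). Hoxb13 was low in 3 of the 4 and was 72.0 CPM in control 2, its lowest value elsewhere. Summed over 12 small intestine markers, the level ranged from 658 to 1866 CPM in the control group, 296 to 1174 in the model group, 321 to 1737 in the Rhy group and 65.8 to 780 in the DXM group, with 12 of 12 genes detected somewhere and Lct under 10 reads in every library. The lowest sum, in DXM 3, coincided with the lowest Cyp2c55 and Cyp2c65. In the 4 libraries named above the sum was 1866 (control 2), 1531 (Rhy 1), 1303 (control 3) and 1174 CPM (model 3). Outside them Rhy 3 had a sum of 1737 CPM with Cyp2c55 at 301 CPM, and no other library exceeded 780 CPM. Any part of small intestine in these values was not tested. Model 1 had a sum of 296 CPM with Cyp2c55 at 594 CPM. The place of the sections is not in the labels, and its part in these values was not tested. Fits with Hox terms are given further on.

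**Figure D2:**
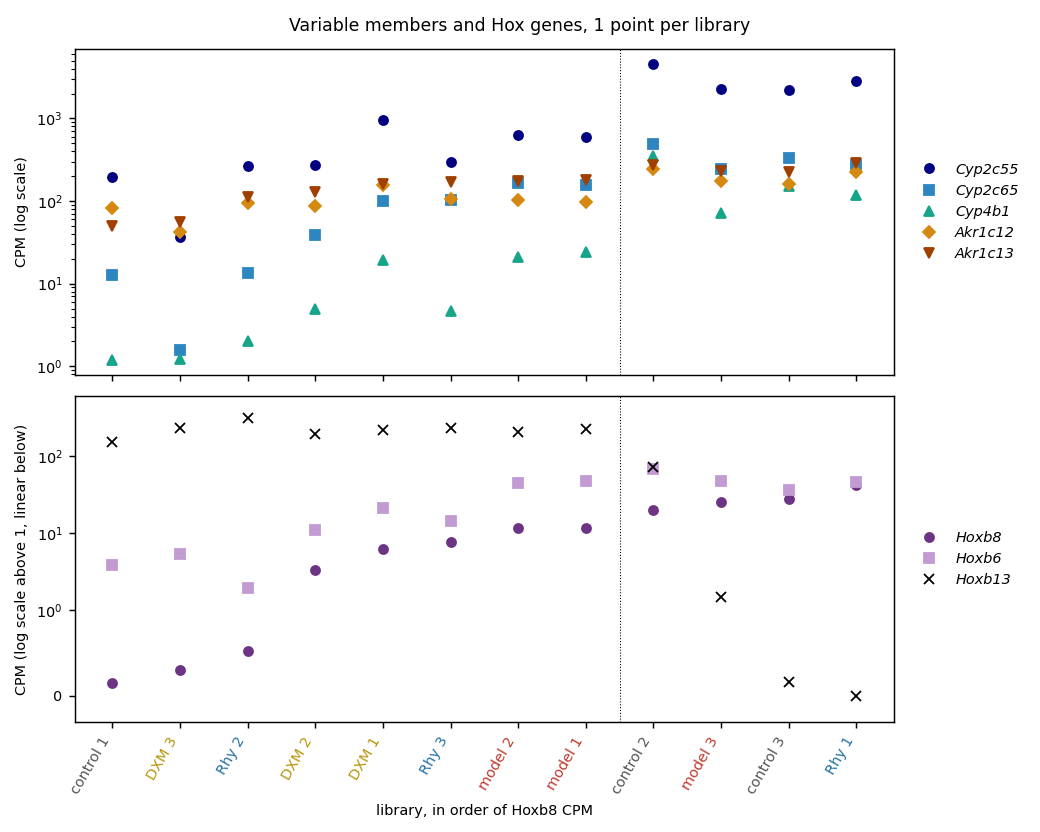
CPM of the 5 variable genes (upper panel) and of Hoxb8, Hoxb6 and Hoxb13 (lower panel) in the 12 libraries, ordered from left to right by Hoxb8, with a dotted line before the 4 highest. Each of the 5 genes is higher in all 4 libraries right of the line than in the 8 libraries left of it, for Akr1c12 only just (162 against 158 CPM). These 4 come from the control, model and Rhy groups.

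The question of the first comparison is what DSS does to these genes. Levels in the model group were lower than in the control group for 8 of the 10 genes, and Akr1c14 stood out with 77.9 ± 9.94 CPM (SD, n = 3) against 141 ± 27.3, a log2 fold change of -0.86 (SE 0.27). The oxidising enzyme Hsd17b2 (-0.69, SE 0.27), the P450 Cyp2s1 (-0.78, SE 0.37) and the receptor gene Nr1i2 (-0.59, SE 0.26) were lower by similar amounts, and the aldehyde reductase Akr1b8 was higher (0.67, SE 0.29). None of them passed the threshold. In edgeR's quasi-likelihood test with Benjamini-Hochberg adjustment, 0 of 16904 genes and 0 of the 10 had an adjusted p under 0.05, and adjusted p was 0.459 for Akr1c14 and 0.488 to 0.528 for the other 4. At an unadjusted p under 0.05, 4 of the 10 were lower or higher (Akr1c14, Hsd17b2 and Nr1i2 lower, Akr1b8 higher), beside 9.62% of all genes (4.51% lower and 5.11% higher). The libraries of the groups were apart for 4 genes, 3 lower and 1 higher, beside 17% of all genes (6.61% lower and 10.4% higher), and a two-sided exact permutation test returned p = 0.1 for each, the smallest that 3 against 3 allows. DESeq2 on all libraries called 46 genes and 0 of the 10.

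The median log2 fold change of the 10 genes was -0.64, and that of all genes was 0.01. Since the 10 genes were chosen with earlier results known, this and the later medians describe them and test nothing. For Cyp2c55 (-0.98, 95% interval -3.72 to 1.75), Cyp2c65 (-0.58, -3.37 to 2.21) and Cyp4b1 (-2.10, -5.59 to 1.40) the intervals span both directions. Akr1c12 (-0.38, SE 0.52) and Akr1c13 (0.10, SE 0.55) were within their errors. In bulk tissue, fewer cells of a type and less RNA per cell cannot be told apart. Summed markers of differentiated colonocytes were 11926 to 26857 CPM in the control group and 11109 to 14655 in the model group, with 12 of 12 genes detected. Of the 14 marker lists, that of crypt base and cycling cells was apart between these groups, at 398 to 496 CPM in the model group and 205 to 340 in the control group, with 10 of 10 genes detected. The part of either in the result was not tested. With model 1 and model 2 counted as 1 library, 2 of the 10 had an unadjusted p under 0.05, as was the case without control 1, control 2, model 1 or model 2. Over all genes the number was 866 with model 1 and model 2 as 1 library, 888 without model 1 and 901 without model 2. It was 1626 in the main fit. The labels do not say outright that each library came from an animal of its own, so p-values measure only the spread between these samples, which may be technical.

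**Figure D3:**
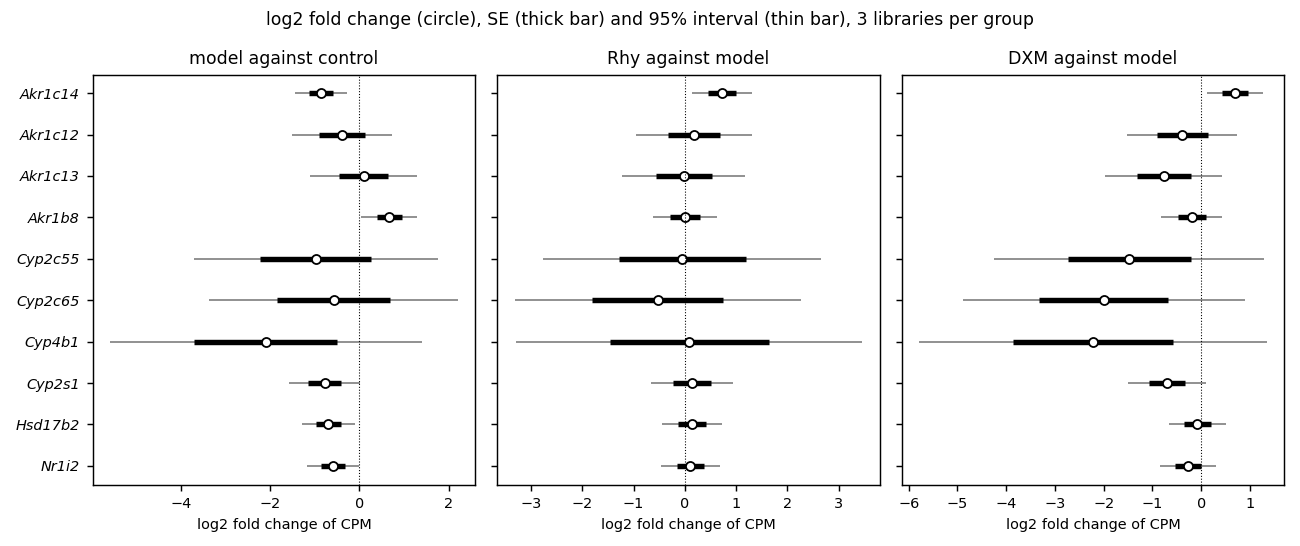
log2 fold change of CPM for the 10 genes in 3 comparisons, with thick bars for the SE and thin bars for the 95% interval, 3 libraries per group. The interval of Akr1c14 lies below 0 against the control (-1.44 to -0.28) and above 0 for Rhy (0.14 to 1.30) and DXM (0.11 to 1.27) against the model, before adjustment, and those of Cyp2c55, Cyp2c65 and Cyp4b1 are the widest.

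The second comparison asks whether Rhy alters these levels in DSS-treated mice. Akr1c14 was the only one of the 10 at an unadjusted p under 0.05, at 129 ± 34.3 CPM in the Rhy group against 77.9 ± 9.94 in the model group, a log2 fold change of 0.72 (SE 0.27, unadjusted p = 0.0188, adjusted p = 1 in edgeR). At that threshold stood 1 of 10, beside 3.72% of all genes and 1.74% on the higher side. The 3 Rhy libraries did not all exceed the model libraries, and 0 of the 10 were apart, beside 11.5% of all genes. With model 1 and model 2 as 1 library the unadjusted p of Akr1c14 was 0.0597, and it was also above 0.05 without Rhy 1 (0.0648), Rhy 3 (0.0651), model 1 (0.0595) or model 2 (0.0602). Of the marker lists, 3 were apart between these groups. Colon epithelium summed to 25245 to 27792 CPM in the Rhy group and 20120 to 23497 in the model group, smooth muscle to 6659 to 7486 and 4332 to 5624, and T cells to 11.3 to 32.8 and 36.4 to 47.9, with all their 12, 10 and 8 genes detected. Their part in the result was not tested.

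For the other 9 genes the log2 fold change between Rhy and model ranged from -0.53 for Cyp2c65 to 0.18 for Akr1c12. Cyp2s1 (0.13, 95% interval -0.66 to 0.93), Hsd17b2 (0.14, -0.45 to 0.73), Nr1i2 (0.10, -0.47 to 0.68) and Akr1b8 (0.00, -0.63 to 0.62) had intervals that span 0. The median of the 10 was 0.09, and that of all genes was -0.01. In edgeR 0 genes passed an adjusted p of 0.05. DESeq2 on all libraries called 5 genes and 0 of the 10.

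Against the control group, the Rhy libraries had Akr1b8 at 96.6 ± 22.1 CPM against 60.7 ± 10.1, a log2 fold change of 0.67 (SE 0.29, adjusted p = 0.408 in edgeR), with all Rhy libraries above all controls. This was 1 of 10 at an unadjusted p under 0.05 and 1 of 10 apart, beside 11.6% and 12.3% of all genes, or 6.46% and 7.5% on the higher side. The first count was 0 without control 1, Rhy 2 or Rhy 3, 2 without control 3 or model 3 and 4 without Rhy 1. Over all genes the number also moved, with 2938 without control 3 against 1953 in the main fit. Akr1c14 differed by -0.14 (SE 0.26) from the control. Hsd17b2 and Nr1i2 differed by -0.56 (SE 0.27) and -0.49 (SE 0.26). T cell markers summed to 11.3 to 32.8 CPM in the Rhy group and 33.2 to 61.0 in the control group, with 8 of 8 detected, and their part was not tested. In edgeR 0 genes passed the adjusted threshold, and DESeq2 on all libraries called 33, with 0 of the 10. These comparisons share their control or model libraries, and their values are not independent.

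The third comparison concerns dexamethasone, an agonist of the glucocorticoid receptor and at high doses of the pregnane X receptor. Akr1c14 was at 125 ± 37.4 CPM in the DXM group against 77.9 ± 9.94 in the model group, a log2 fold change of 0.69 (SE 0.27, adjusted p = 0.637 in edgeR), and all 3 DXM libraries exceeded all model libraries. The P450 genes were lower on average, with log2 fold changes of -0.71 (SE 0.37) for Cyp2s1, -1.48 (SE 1.27) for Cyp2c55, -1.99 (SE 1.32) for Cyp2c65 and -2.22 (SE 1.63) for Cyp4b1. At an unadjusted p under 0.05 stood 1 of the 10, Akr1c14, beside 7.69% of all genes and 4.89% on the higher side. It was 0 of the 10 without model 1, model 2 or DXM 2 and 2 without Rhy 1 or DXM 1. Over all genes the number was 775 without model 1 and 771 without model 2, against 1300 in the main fit. Groups were apart for 5 of 10, Akr1c14 higher and Akr1c13, Cyp2c65, Cyp4b1 and Cyp2s1 lower, beside 22.6% of all genes, of which 10.4% were higher and 12.2% lower. Model 1 and model 2, which were nearly alike, make up 2 of the 3 model libraries in this count. In edgeR 0 genes passed the adjusted threshold, DESeq2 on all libraries called 52, and 0 of the 10 were among these.

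The median log2 fold change of the 10 between DXM and model was -0.55, and that of all genes was -0.01. Nr1i2 (-0.27, 95% interval -0.84 to 0.30), Hsd17b2 (-0.08, -0.67 to 0.51) and Akr1b8 (-0.20, -0.82 to 0.43) had intervals that span 0. With Hoxb8 as a term in the fit, a setting chosen after the data were seen, Cyp2c55, Cyp2c65 and Cyp4b1 stood at -0.08, -0.52 and 0.31, whereas Akr1c14 stood at 0.79 and Cyp2s1 at -0.40. With Hoxb13 as the term instead, the same 5 genes stood at -0.61, -1.62, -1.22, 0.72 and -0.59. Hoxb8 itself was apart between these groups, at 0.304 to 6.31 CPM in the DXM group and 11.8 to 25.4 in the model group. The fit with Hoxb8 cannot tell its term from the groups, and the part of position was not tested. Smooth muscle markers summed to 5930 to 10508 CPM in the DXM group and 4332 to 5624 in the model group, with 10 of 10 detected, and differentiated colonocyte markers to 6293 to 17950 and 11109 to 14655 CPM. Neutrophil and macrophage markers summed to 287 to 481 CPM in the DXM group and 103 to 184 in the model group, with 7 of 12 detected in every library, and markers of proximal colon position to 105 to 161 and 218 to 242 CPM. The part of these in the values was not tested.

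Of the 5 comparisons, that between DXM and control had the median of the 10 genes furthest from 0, at -0.82 against 0.06 for all genes. Cyp2s1 was at 58.1 ± 19.4 CPM in the DXM group against 163 ± 60.9, a log2 fold change of -1.49 (SE 0.37, unadjusted p = 0.00188, adjusted p = 0.13 in edgeR). Nr1i2 was at 57.8 ± 12.8 against 105 ± 20.3 CPM (-0.86, SE 0.26, adjusted p = 0.143). Every DXM library lay below every control library for both, 2 of 10 genes apart, beside 18.7% of all genes and 8.89% on the lower side. Hsd17b2 (-0.77, SE 0.27, adjusted p = 0.176) and Cyp4b1 (-4.32, SE 1.77, adjusted p = 0.225) also had an unadjusted p under 0.05, 4 of 10 in all, beside 18.9% of all genes and 10.2% on the lower side. This count was 7 without control 1 or DXM 1 and 2 without control 2 or DXM 2. Over all genes the number was 2061 without control 2, against 3189 in the main fit. Since the number over all genes also moves between refits, such counts describe the fits and show nothing particular to the 10 genes.

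The result for Cyp2s1 and Nr1i2 differed between edgeR and DESeq2, which also started from different sets of genes. In edgeR 0 of the 16904 genes passed an adjusted p of 0.05. DESeq2 on all libraries started from the 54532 genes less 24548 without a count and applied its own filter. It called 1051 genes, among them Cyp2s1 (adjusted p = 0.00808) and Nr1i2 (adjusted p = 0.0403). How many genes that filter kept is not given, so no share stands beside these 2 of 10. On all genes with any count, edgeR called 13 genes and gave adjusted p of 0.0684 for Cyp2s1 and 0.14 for Nr1i2. DESeq2 on the 6 libraries of these groups called 395, with Cyp2s1 (adjusted p = 0.0123) but not Nr1i2 (adjusted p = 0.0904). Without the 3 libraries of low Hoxb13, chosen after the data were seen, the edgeR log2 fold change was -1.65 for Cyp2s1 and -1.03 for Nr1i2, each with an adjusted p of 0.0697. The DXM group also received DSS, so the drug and DSS cannot be told apart in this comparison. Markers of distal colon position summed to 275 to 468 CPM in the DXM group and 28.3 to 217 in the control group, with 2 of 6 detected in every library. Pancreatic acinar markers summed to 169 to 307 and 55.9 to 96.4 CPM, with 2 of 10 detected in every library and Amy2a5, Cpa1 and Prss1 at 0. Their part in the result was not tested.

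Over all 4 groups together, 4 of the 10 genes had an unadjusted p under 0.05 in edgeR's test of any difference (Cyp2s1 0.0139, Akr1c14 0.0373, Nr1i2 0.0387 and Hsd17b2 0.049), beside 11.5% of all genes. This count was 0 without control 2, 1 without model 1 or model 2 and 2 without control 1, Rhy 3 or DXM 3. Over all genes the number was 1229 without control 2, against 1941 in the main fit. The adjusted p of the 10 was 0.391 or more, and DESeq2 called 414 genes and 0 of the 10.

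Other genes of the same pathways are given from lists written from general knowledge, with earlier results of these data known. In edgeR 0 of their genes passed an adjusted p of 0.05 in any comparison. Against the control, the model group had 26 of 31 other cytochromes P450 at a lower level (median log2 fold change -0.55, with 0 higher and 4 lower at an unadjusted p under 0.05) and 28 of 35 nuclear receptors and drug transporters (median -0.43, 0 higher and 5 lower), beside 5.11% of all genes higher and 4.51% lower. Of 24 steroid metabolism genes 15 were lower (median -0.14), of 38 other aldo-keto and carbonyl reductases 23 (median -0.33), and of 43 conjugating enzymes 23 (median -0.03). The median of all genes was 0.01.

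The genes with the smallest p in each list were these. Hsd17b13, a lipid droplet enzyme, was at 65.8 ± 0.997 CPM in the model group and 168 ± 52.5 in the control group (log2 fold change -1.36, SE 0.40). Slco2a1, the prostaglandin transporter, stood at -1.37 (SE 0.38) and the fatty acid hydroxylase Cyp4f13 at -1.05 (SE 0.34). Higher in the model group were Akr1b3, which is aldose reductase, at 75.1 ± 5.50 against 37.7 ± 3.96 CPM (0.99, SE 0.32), and Gsta4, which conjugates lipid peroxidation aldehydes with glutathione, at 0.63 (SE 0.18). Akr1b3 belongs to the same family as Akr1b8. Adjusted p ranged from 0.459 to 0.472 in edgeR.

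Between Rhy and model the medians of the 5 lists lay between 0.03 and 0.19, against -0.01 for all genes. Of 38 other aldo-keto and carbonyl reductases 27 were higher, with Cbr4 at 19.5 ± 2.74 against 14.7 ± 1.81 CPM (0.41, SE 0.19). The sulfate donor synthase Papss1 was at 215 ± 18.8 against 160 ± 11.2 CPM (0.43, SE 0.18). The oxysterol hydroxylase Cyp7b1 stood at 1.26 (SE 0.46), Cyp4x1 at -0.94 (SE 0.51) and the retinoid receptor gene Rxrg at 1.52 (SE 0.76), all 3 at under 2 CPM. Each had an adjusted p of 1.

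Between DXM and model, 32 of 43 conjugating enzymes (median -0.28), 26 of 35 nuclear receptors and drug transporters (median -0.32) and 25 of 38 other reductases (median -0.19) were lower, and the median of 31 other cytochromes P450 was 0.15. Hsd17b13 was at 16.2 ± 8.15 CPM in the DXM group against 65.8 ± 0.997 (-2.02, SE 0.41, adjusted p = 0.622 in edgeR). Cyp4f14, which inactivates leukotrienes, stood at -2.55 (SE 0.70), the carboxylesterase gene Ces2e at -1.44 (SE 0.54) and the lipid-sensing receptor gene Ppard at -0.64 (SE 0.18). The glutathione transferase gene Gstt1 was higher, at 54.6 ± 14.2 against 26.6 ± 6.98 CPM (1.04, SE 0.23, adjusted p = 0.622).

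**Figure D4:**
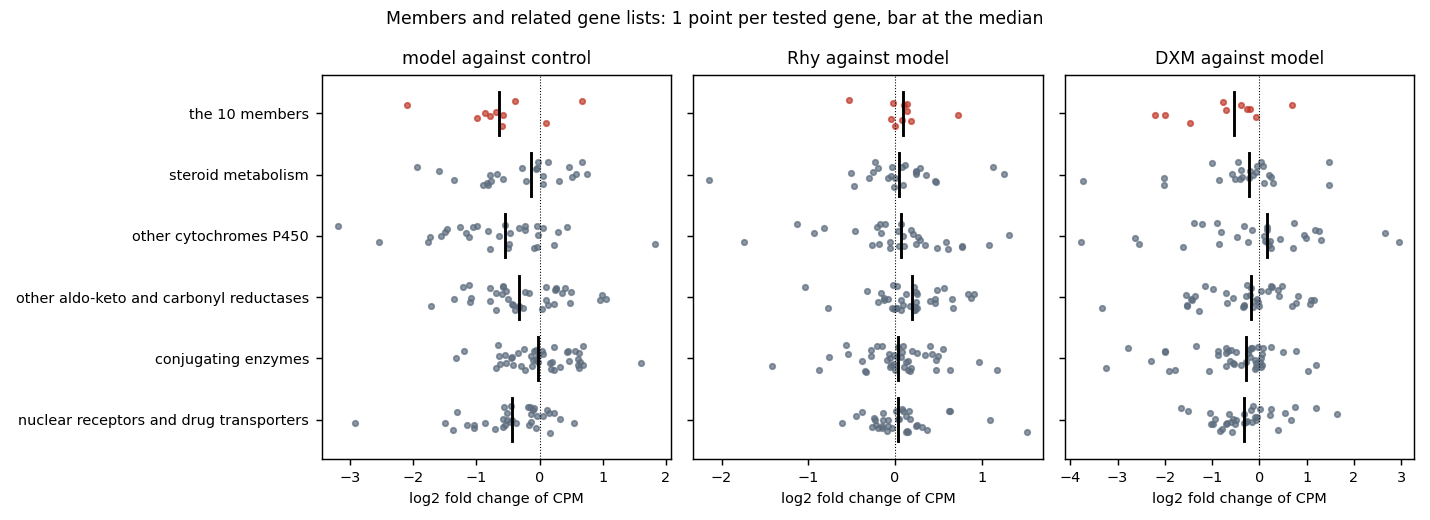
log2 fold change of CPM in 3 comparisons for the 10 genes (red) and for 5 lists of related genes (grey), 1 point per tested gene and a bar at the median. Between model and control the bars of the 10 genes (-0.64), the other cytochromes P450 (-0.55) and the receptors and transporters (-0.43) lie furthest to the left.

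Likeness of pattern was measured over the 12 libraries as the root mean square difference of log2 CPM, each gene centred on its own mean, and it describes these libraries alone. Nr1i2 was closest to Jup (0.12) and Ell2 (0.13), and among the 10 genes to Hsd17b2 (0.22). Cyp2s1 was closest to Arhgap27 and Eps8l2 (both 0.16). Akr1c14 was closest to Pts and Cbr4 (both 0.28), the latter a carbonyl reductase. Akr1b8 was closest to Urah (0.21) and Hddc2 (0.23).

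Distances were larger for the 3 P450 genes with the widest spread. Cyp2c55 was closest to Cyp2d26 (0.60) and Ces1f (0.64), a P450 and a carboxylesterase, and among the 10 genes to Cyp2c65 (0.88). Cyp2c65 was closest to Slc51a (0.46), a subunit of the bile acid exporter, and B4galnt2 (0.49). Cyp4b1 was closest to Cyp3a44 (0.91) and Ugt8a (0.94). Akr1c12 was closest to Pfkl and Tgfa (both 0.22), and Akr1c13 to Snx7 (0.19) and Gm15163 (0.24), while the distance between Akr1c12 and Akr1c13 was 0.40.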

How the data were processed

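RNA-Seq of mouse colon sections (12 libraries) was deposited by the authors as counts, whole numbers of reads per gene without normalization, and as FPKM values, which equal these counts over gene length and DESeq2 size factors (262985 values above 0, 100% recovered within 0.1% or 0.001 FPKM). The submitters' processing notes name HISAT2 2.0.5, featureCounts 1.5.0-p3, DESeq2 1.16.1 and mm10. Groups were taken from the treatment label. Of 54532 genes, 16904 passed filterByExpr (minimum count 10) and were fitted in R 4.3.3 with edgeR 4.0.16 (TMM, quasi-likelihood test, 12 libraries in 1 fit, two-sided, Benjamini-Hochberg adjustment), which was tested on simulated data. The standard error was the log2 fold change divided by the square root of F. CPM carries no prior count, and log2 CPM has a prior count of 2. DESeq2 1.42.0, run on all genes with a count in the libraries fitted, served for alternatives. The deposited FPKM values were used for levels between genes. Promoters and transcripts were read with Python 3.11.15.

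The 10 genes and all lists were chosen with earlier results of these data known. Named beside them are, for each list and comparison, the gene with the smallest p, the 2 nearest genes by pattern (those of Hsd17b2 are not reported here), Hoxb13 and marker sums. Hoxb8, Hoxb6, Lct, Cyp2c29, Amy2a5, Cpa1 and Prss1 were chosen after their values were seen. Alternatives were RLE and upper-quartile scaling, no filter beyond 1 read, fits to the compared groups alone, DESeq2, a replicate block, model 1 and model 2 as 1 library, a Hoxb13 term and each library left out, and, added after the data were seen, a Hoxb8 term and omission of the 3 libraries with Hoxb13 under 5 CPM.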

Additional observations from a re-analysis of the deposited data

How the results depend on the processing

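Of 50 log2 fold changes (10 genes, 5 comparisons), 32 kept their direction in all 23 alternatives, among them those of Akr1c14, Cyp2s1, Hsd17b2, Nr1i2 and Cyp4b1 against the control for the model and DXM groups. Most reversals lay between Rhy and model, where Akr1c13 was 0.0069 with RLE scaling, 0.0070 with DESeq2 on all libraries, 0.00016 with DESeq2 on only the groups compared and 0.33 with a Hoxb8 term. Akr1b8 was 0.025, 0.025 and 0.017 in the first 3 of these, 0.012 with upper-quartile scaling and 0.40 without the 3 libraries of low Hoxb13. Cyp4b1 was -0.20 with model 1 and model 2 as 1 library, -1.76 with a Hoxb13 term, -0.043 with a Hoxb8 term and -2.71 without the 3 libraries, Cyp2c55 was 0.45 with a Hoxb8 term, and Cyp2s1 and Nr1i2 were -0.28 and -0.11 without the 3 libraries. Elsewhere, a Hoxb8 term gave -0.082 for Akr1c13 between model and control and 0.19, 0.011 and 0.31 for Akr1c12, Akr1c13 and Cyp4b1 between DXM and model. Omission of the 3 libraries gave 0.046 for Akr1b8 and 0.15 for Hsd17b2 between DXM and model, and -0.18 for Akr1c13 between Rhy and control. The cause was not tested.

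Leaving out each library in turn gave log2 fold changes between Rhy and model of -0.18 to 0.25 for Akr1b8, -0.32 to 0.53 for Akr1c12, -0.45 to 0.25 for Akr1c13, -2.05 to 0.93 for Cyp2c55, -0.36 to 0.41 for Cyp2s1, -3.54 to 0.92 for Cyp4b1 and -0.23 to 0.28 for Nr1i2. Between model and control it gave -0.76 to 0.038 for Akr1c12, -0.35 to 0.50 for Akr1c13 and -1.14 to 0.12 for Cyp2c65. Between DXM and model it gave -0.57 to 0.047 for Akr1b8 and -0.19 to 0.15 for Hsd17b2, and between Rhy and control -0.70 to 0.22 for Akr1c12, -0.37 to 0.48 for Akr1c13 and -0.30 to 0.072 for Akr1c14. The number of genes with an adjusted p under 0.05 was 0 to 4 between DXM and control and 0 to 1 between Rhy and control, Rhy and model, model and control and among the 4 groups. Akr1c12, Cyp2s1 and Nr1i2 reversed between Rhy and model without Rhy 1 only, and Akr1c12 and Cyp2c65 between model and control without control 2 only.

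The number of genes with an adjusted p under 0.05 was 0 in every comparison of the main edgeR fit. With all genes of any count it was 1 between model and control, 1 between Rhy and control, 13 between DXM and control and 12 among the 4 groups. On only the groups compared it was 1 between model and control and 2 between DXM and model, a Hoxb8 term gave 1 between DXM and control, and without the 3 libraries it was 2 between DXM and model and 1 among the 4 groups. DESeq2 on all libraries called 46 (model and control), 5 (Rhy and model), 52 (DXM and model), 33 (Rhy and control), 1051 (DXM and control) and 414 (4 groups), and DESeq2 on only the groups compared called 167, 41, 590, 2 and 395. Of the 10 genes, the 2 DESeq2 fits called 2 and 1 between DXM and control.

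A replicate block turned Cyp4b1 between Rhy and model to -1.33 and left 0 genes past the adjusted threshold. Replicate numbers do not pair the libraries by the labels. Of same-numbered pairs from different groups, 6 of 18 correlated above 0.1 (median -0.03), and of different-numbered pairs 15 of 36 did (median 0.03). With 3 libraries a group, intervals of the variable P450 genes span several log2 units.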
